A study of Homo sapiens with 18 samples.

Results

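The genes of the proteasome were examined for binding of AML1-ETO, the fusion protein made by the t(8;21) translocation of acute myeloid leukaemia. The members are the 48 protein-coding genes of the RefSeq annotation of GRCh38 whose symbol is PSMA, PSMB, PSMC, PSMD, PSME, PSMF or PSMG followed by a number, out of 20037 protein-coding genes placed on a nuclear chromosome. A gene was said to have a call when the nearest edge of a peak lay within 1 kb of either boundary of the gene, where a boundary is the first or last annotated base. Binding was profiled by CUT&RUN, in which a nuclease tethered by an antibody cuts out the bound DNA for sequencing. The cells were Kasumi-1, a human leukaemia line with t(8;21), carrying AML1-ETO with a Flag tag. The control and the miR-130a knockdown (KD) cells were both transduced, and viable GFP-positive cells were sorted 3 days later, with 200000 cells used per condition. The labels do not describe the vectors or how the tag was introduced, and all groups come from this single line. In each condition 3 libraries were made with an antibody against ETO, 3 with an antibody against Flag and 3 with mouse IgG, 18 in all. The level of miR-130a was not analysed here.

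The proteasome is the cell's main protease for proteins marked with ubiquitin. Its barrel-shaped core is built from alpha subunits (PSMA genes), which form the gate, and beta subunits (PSMB genes), some of which cut peptide bonds. A regulatory cap of ATPases (PSMC genes) and non-ATPase subunits (PSMD genes) binds, unfolds and feeds substrates to the core, while other activators (PSME genes), an inhibitor (PSMF1) and assembly chaperones (PSMG genes and some PSMD genes) act beside it. In blood cells the immunoproteasome replaces the catalytic beta subunits with PSMB8, PSMB9 and PSMB10, which favours peptides for antigen presentation, and inhibitors of the catalytic sites are used as drugs in blood cancers.

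The values are positions of peaks, with 1 list for each antibody and condition and 3 lists that the authors derived, by their names, from the calls of both antibodies: peaks shared by control and knockdown, those unique to control and those unique to knockdown. The 4 single-antibody lists held 14264 (control anti-ETO), 22594 (knockdown anti-ETO), 23162 (control anti-Flag) and 25961 (knockdown anti-Flag) peaks. Libraries were planned at about 40 M reads. The lists give positions alone, without scores and without separate libraries, so the depth behind a call is unknown, no spread between libraries could be computed, and every statement below is a description of these lists without a test. Shares over the proteasome genes are set beside those over all protein-coding genes.

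Most proteasome genes had a call of at least 1 antibody at a boundary, and fewer had calls in all 4 lists. At least 1 of the 4 single-antibody lists had a call at 34 of the 48 genes (70.8%), against 45.5% of all protein-coding genes. Control anti-ETO called 28 of 48 (58.3%, all genes 35.0%) and knockdown anti-ETO 31 of 48 (64.6%, all genes 41.5%). Control anti-Flag called 29 of 48 (60.4%, all genes 37.0%) and knockdown anti-Flag 24 of 48 (50%, all genes 30.5%). All 4 lists had a call at 23 genes (47.9%, all genes 25.9%), and the shared list had a peak at 23 genes (47.9%, all genes 25.4%). No call in any of the 4 lists was found for 14 genes (29.2%, all genes 54.5%). The excess in the shared list was smaller among wide peaks: in the wider 50% of that list, 9 of the 48 genes had a peak, against 15.9% of all genes. Without the 14 genes whose peaks also lay near another gene, 11 of 34 had a shared peak. Only called genes were removed from that set, so a lower share was fixed in advance. All genes were not filtered alike, so no matching share is given.

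**Figure D1:**
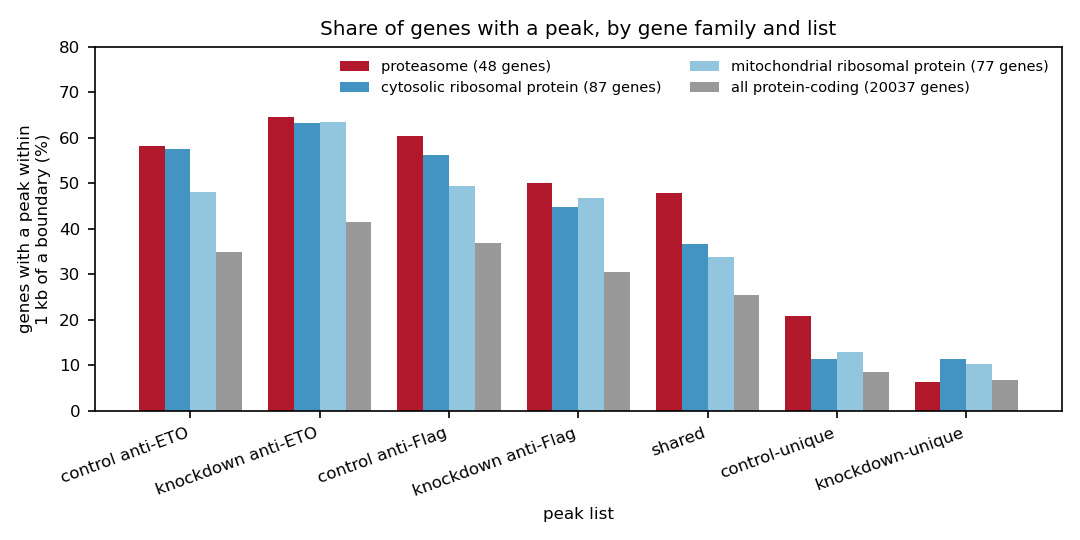
Share of genes (percent, vertical axis) with a peak within 1 kb of a gene boundary in each of the 7 lists (horizontal axis), for the 48 proteasome genes, 87 cytosolic and 77 mitochondrial ribosomal protein genes and all 20037 protein-coding genes. The proteasome bar stands above the bar of all genes in 6 of the 7 lists, the exception being the knockdown-unique list (6.25% against 6.84%).

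The 2 families of ribosomal protein genes, which like the proteasome genes are active in nearly every cell, gave a scale for these shares. A call in at least 1 list was found for 69.0% of the 87 cytosolic and 66.2% of the 77 mitochondrial ribosomal protein genes, close to the 70.8% of the proteasome genes. The shared list had a peak at 36.8% and 33.8% of them, against 47.9% of the proteasome genes. Whether these families differ from the proteasome genes was not tested.

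**Figure D2:**
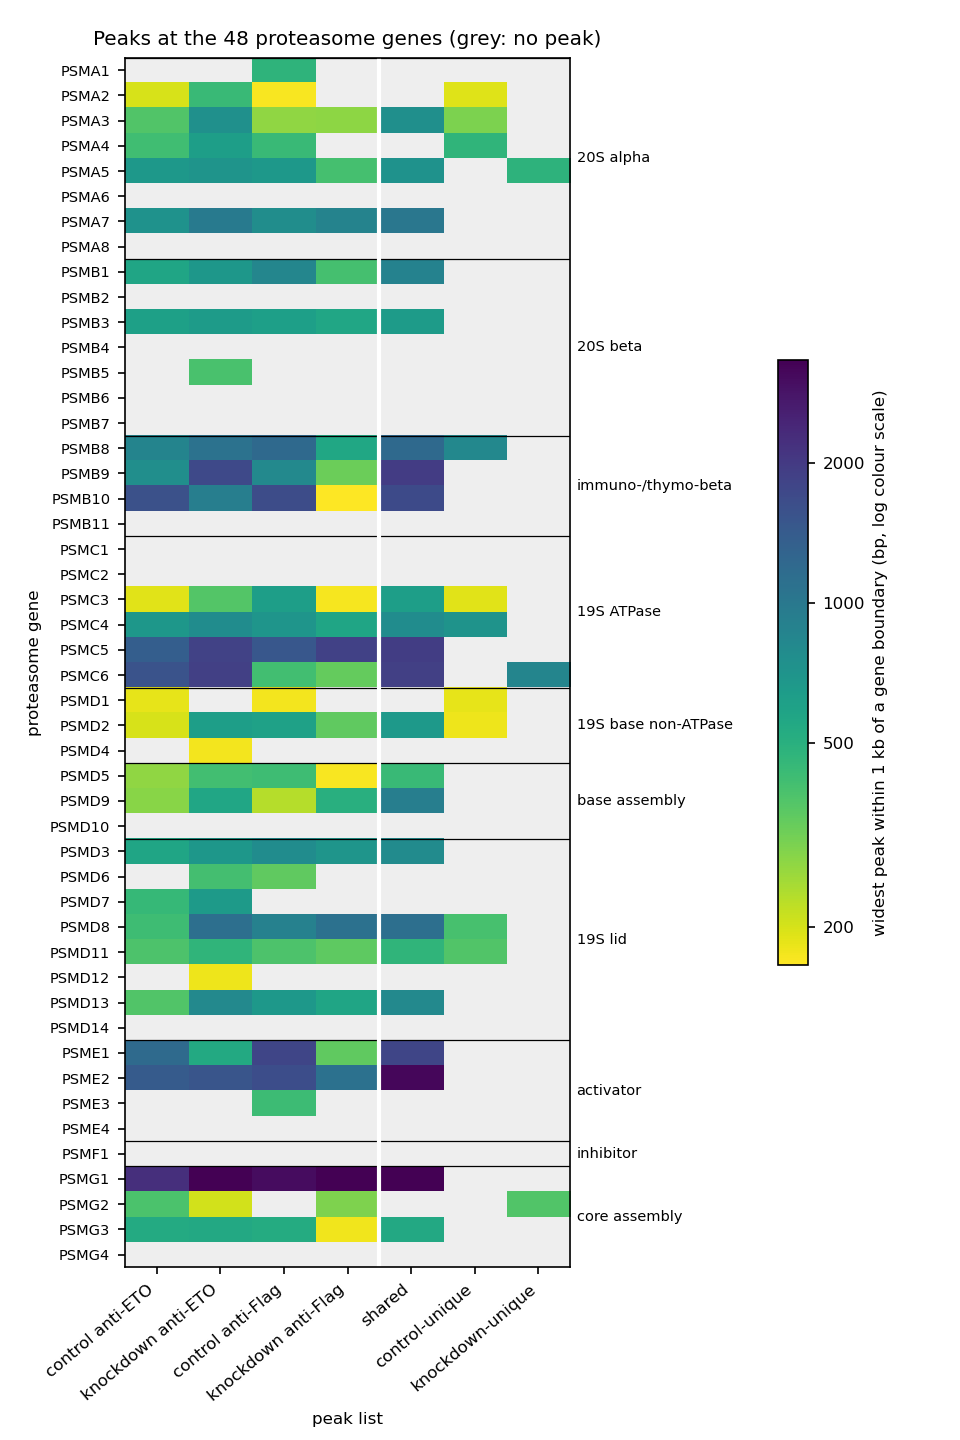
Each row is a proteasome gene, grouped by role, and each column a peak list. The colour gives the width of the widest peak within 1 kb of a gene boundary (bp, log colour scale) and grey means no peak. PSMG1 has peaks of over 2000 bp in every list of a single antibody, while most genes coding for 20S beta subunits are grey in all columns.

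The role groups are small, and their counts are to be read against the 45.5% of all genes with a call in at least 1 list and the 25.9% with calls in all 4. Of the 8 alpha subunit genes of the core particle, 6 had a call and 3 had a call in all 4 single-antibody lists: PSMA3, PSMA5 and PSMA7. PSMA7 had peaks of 395, 722 and 466 bp in control anti-ETO and of 374, 769 and 602 bp in control anti-Flag. In knockdown, PSMA7 had 4 anti-ETO peaks of up to 983 bp and 3 anti-Flag peaks of up to 874 bp, and 2 of its shared peaks also lay within 1 kb of a boundary of SS18L1. PSMA4 had peaks of 415 bp (control anti-ETO), 620 bp (knockdown anti-ETO) and 439 bp (control anti-Flag) across its start, and none in knockdown anti-Flag. PSMA1 had only a control anti-Flag peak of 473 bp at its boundary, which also lay near PDE3B. The annotation lists another PSMA1 start 123276 bp inside the gene, and there all 4 lists had a peak, the widest measuring 211 bp (control anti-ETO), 655 bp (knockdown anti-ETO), 279 bp (control anti-Flag) and 210 bp (knockdown anti-Flag). PSMA6 and PSMA8, the latter a testis form, had no call at a boundary, although a listed start 13759 bp inside PSMA6 had a knockdown-unique peak of 533 bp and a control anti-Flag peak of 508 bp.

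Of the 7 standard beta subunit genes, 3 had a call, a share close to that of all genes (45.5%). PSMB1 and PSMB3 had calls in all 4 lists. PSMB3 had a pair of peaks on either side of its start in each list, and the upstream peak measured 609 bp in control anti-ETO, 640 bp in knockdown anti-ETO, 611 bp in control anti-Flag and 565 bp in knockdown anti-Flag. The 4 PSMB1 lists each held 2 peaks, of 253 to 843 bp, and its widest shared peak (882 bp) also lay near TBP. Of the catalytic subunits, PSMB5, the chymotrypsin-like subunit and main target of proteasome inhibitor drugs, had only a knockdown anti-ETO peak of 393 bp across its start, and PSMB6 and PSMB7 had no call, like PSMB2 and PSMB4.

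All 3 inducible immunoproteasome subunits had calls in all 4 lists and a shared peak, and the thymus subunit PSMB11 had none. The widest shared peak measured 1193 bp at PSMB8, 1956 bp at PSMB9 and 1692 bp at PSMB10. Each of these ran from the first to the last base of the single-antibody peaks it joined, so its width is not the extent called in every list. At PSMB9, knockdown anti-Flag had peaks of 319 and 325 bp, neither of them over the start. PSMB8 and PSMB9 lie side by side in the HLA region of chromosome 6 with TAP1, a peptide transporter, between them, and every peak at PSMB8, and every peak at the start of PSMB9, was also within 1 kb of a TAP1 boundary. PSMB10 lies on chromosome 16 and its peaks were near no other protein-coding gene. At PSMB10 the start was covered in control by an anti-ETO peak (1579 bp) and an anti-Flag peak (1671 bp). Knockdown anti-ETO had peaks of 928 and 564 bp there, and knockdown anti-Flag only 1 peak of 166 bp inside the gene, with its centre 835.5 bp from the start.

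Among the genes of the ATPase ring, PSMC3, PSMC4, PSMC5 and PSMC6 had calls in all 4 lists and PSMC1 and PSMC2 in none. PSMC5 had a single wide peak across its start in every list, of 1368 bp (control anti-ETO), 1845 bp (knockdown anti-ETO), 1475 bp (control anti-Flag) and 1862 bp (knockdown anti-Flag), near FTSJ3 as well. At PSMC6 the control calls lay at the far end of the gene, where the anti-ETO peak of 1552 bp also lay near STYX, and the start was called only in knockdown, by anti-ETO (847 bp) and anti-Flag (294 bp).

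All 3 non-ATPase genes of the cap's base had a call, but only PSMD2, a scaffold subunit, had one in all 4 lists. PSMD1, the other large scaffold, had narrow peaks of 185 bp (anti-ETO) and 176 bp (anti-Flag) in control and none in knockdown, and was the only member with an anti-ETO call in control alone. PSMD4, a ubiquitin receptor, had only a knockdown anti-ETO peak of 175 bp. Of the genes of the cap's lid, 7 of 8 had a call and PSMD3, PSMD8, PSMD11 and PSMD13 had one in all 4 lists. PSMD8 had the widest shared lid peak, 1120 bp, downstream of its start. PSMD13 had 2 peaks in each list, all also near SIRT3, a gene on the other side of its start. PSMD7 had a control (445 bp) and a knockdown (654 bp) anti-ETO peak and no anti-Flag call, PSMD12 had only a knockdown anti-ETO peak of 180 bp, and PSMD14, the deubiquitinase of the lid, had no call. PSMD6 had a control anti-Flag peak of 345 bp and knockdown anti-ETO peaks of 409 and 190 bp.

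PSME1 and PSME2, whose products form an interferon-inducible activator ring, had calls in all 4 lists and lie near each other on chromosome 14. The shared peak across the start of PSME2 joined several peaks of the single-antibody lists, measured 3150 bp and also lay near RNF31. The shared peak at the start of PSME1 measured 1182 bp. PSME3, which forms a nuclear activator, had a control anti-Flag peak of 427 bp alone. PSME4 and the inhibitor gene PSMF1 had no call. Of the core assembly chaperones, PSMG1 had the widest peaks of any proteasome gene, 2223 bp (control anti-ETO), 3315 bp (knockdown anti-ETO), 3032 bp (control anti-Flag) and 3322 bp (knockdown anti-Flag), which also reached to within 1 kb of BRWD1. PSMG3 had calls in all 4 lists, of 531, 547, 529 and 178 bp in the same order, PSMG2 in 3 lists and PSMG4 in none. Of the chaperones of cap assembly, PSMD5 and PSMD9 had calls in all 4 lists and PSMD10 in none. The widest shared peak measured 436 bp at PSMD5 and 928 bp at PSMD9.

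The split between genes with a call in any list and genes without left little near the 1 kb limit. For every called gene except PSMG2 a peak lay within 327 bp of a boundary, and PSMG2 had its nearest peak at 851 bp. Some calls of a single list lay nearer the limit, such as control anti-ETO at PSMC6 (959 bp) and knockdown anti-Flag at PSMB10 (753 bp). At a distance of 500 bp, 21 genes had calls in all 4 lists (all genes 23.7%), and PSMB10 and PSMC6 were not among them. For the 14 uncalled genes the nearest peak of any single-antibody list was at least 4250 bp from a boundary (PSMG4). For PSMD10, PSMD14 and PSMC2 it was at 404835, 230048 and 197707 bp. These distances leave out peaks deep inside a gene. At PSMG4 a knockdown anti-ETO peak of 1057 bp lay within 1 kb of a listed start 4543 bp inside the gene. With peaks counted over the gene body and 1 kb, 12 genes had no call (all genes 47.3%), and PSMA6 and PSMG4 had one. No peak was counted for more than 1 proteasome gene. In each of the single-antibody lists 37.7% to 44.2% of the peaks at proteasome genes were also near another protein-coding gene. Among all peaks near a boundary, each counted once, the share near 2 or more genes was 21.4% to 22.1%. The 2 shares are not alike. A peak near 2 genes could enter the proteasome set through either, so a higher share there was partly fixed by the counting. A peak also near another gene was found at 14 of the 34 called genes, so the assignment to the proteasome gene is not unique there.

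Of 25 other genes of the proteasome pathway, 22 had a call (all genes 45.5%) and 15 had calls in all 4 lists (all genes 25.9%). TAP1 is in both counts, although its peaks are those already counted for PSMB8 and PSMB9. The genes of both factors that drive proteasome transcription under stress carried wide peaks. At NFE2L1 the widest peak measured 2610 bp (control anti-ETO), 3068 bp (knockdown anti-ETO), 4074 bp (control anti-Flag) and 1716 bp (knockdown anti-Flag), and at NFE2L2 it measured 2794, 3597, 3080 and 2867 bp in the same order. The cap-associated genes USP14 and UCHL5, both deubiquitinases, and the cap's ubiquitin receptor gene ADRM1 had calls in all 4 lists. SEM1, a lid subunit, POMP, the maturation chaperone of the core, and TXNL1, a cap-associated thioredoxin, had none. Control-unique peaks were found at 3 of the 25 (all genes 8.51%): UBE3C, a proteasome-bound ubiquitin ligase, ZFAND5, an activator, and TAP1, whose peak is the one counted for PSMB8. Knockdown-unique peaks were found at 3 (all genes 6.84%): ADRM1, the cap assembly gene PAAF1 and DDI2, the protease that activates NFE2L1.

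Calls lay mainly at gene starts, as they did over all genes, and a minority of starts were flanked by peaks on both sides. The promoter table gave a strand for 42 of the 48 genes, all except PSMA7, PSMB1, PSMB6, PSMB7, PSMD4 and PSMG3. In control anti-ETO, 35 of 38 gene-peak pairs were at least as near the start as the end (92.1%, all genes 89.4%), and in knockdown anti-ETO 43 of 45 (95.6%, all genes 86.8%). In control anti-Flag the count was 40 of 46 (87.0%, all genes 86.2%) and in knockdown anti-Flag 30 of 32 (93.8%, all genes 83.0%). Of the 24 proteasome genes with a control anti-ETO peak within 1 kb of the start, a peak covered the start at 11 (45.8%, all genes 54.3%) and peaks lay on both sides of it without covering it at 6 (25.0%, all genes 10.4%). In control anti-Flag the start was covered at 9 of 25 (36.0%, all genes 45.1%) and flanked on both sides at 8 (32.0%, all genes 19.9%). In knockdown anti-ETO the start was covered at 15 of 27 (55.6%, all genes 55.9%) and flanked at 8 (29.6%, all genes 15.5%). In knockdown anti-Flag it was covered at 5 of 21 (23.8%, all genes 34.3%) and flanked at 6 (28.6%, all genes 24.8%). PSMB3 was flanked on both sides in all 4 lists, and PSMA3 in all but knockdown anti-Flag.

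**Figure D3:**
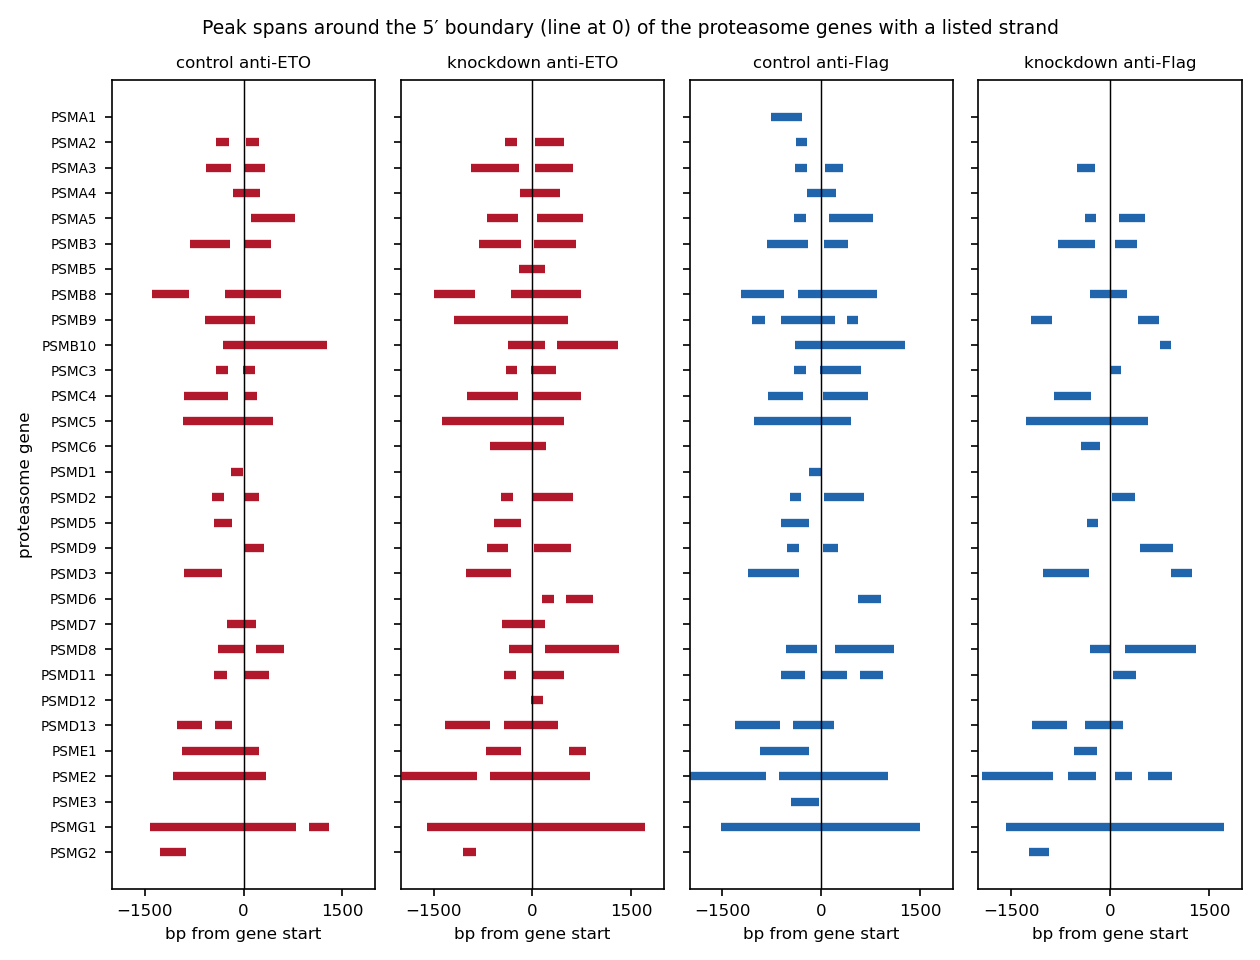
Spans of the peaks nearer to the start than to the end (bars), relative to the 5′ boundary of each of 30 proteasome genes (horizontal axis, bp, negative is upstream, cropped at 2000 bp), in the 4 single-antibody lists. Some genes show a pair of bars with a gap at 0, and several downstream or upstream bars of control anti-Flag have no counterpart in knockdown anti-Flag.

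Control and knockdown were compared within each antibody. The comparison addresses whether the occupancy of AML1-ETO differs after knock-down of miR-130a. For anti-ETO, 27 genes had a call in both conditions (56.2%, all genes 33.5%), 1 in control only (2.08%, all genes 1.47%) and 4 in knockdown only (8.33%, all genes 8.01%): PSMB5, PSMD4, PSMD6 and PSMD12. For anti-Flag, 23 genes had a call in both conditions (47.9%, all genes 27.9%), 6 in control only (12.5%, all genes 9.07%) and 1 in knockdown only (2.08%, all genes 2.57%). The 6 were PSMA1, PSMA2, PSMA4, PSMD1, PSMD6 and PSME3, and the 1 was PSMG2. At another listed start, 44304 bp inside PSMG2, the anti-Flag call went the other way, with a control peak of 357 bp and none in knockdown. The shares called in 1 condition only were near those of all genes.

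The extent of the calls was measured as the number of bases, within 1 kb of either boundary, that were covered by peaks. For anti-ETO the covered length was higher in knockdown than in control at 29 of the 32 genes called in either condition and lower at 3 (PSMB10, PSMD1 and PSME1). The median difference of knockdown minus control was 207 bp, against 234 bp over all genes, of which 79.9% were higher. The knockdown anti-ETO list is the longer one, and when it was cut by width to the length of the control list, 22 genes were higher and 8 lower of 30 (all genes 67.6% higher). The median anti-ETO difference was then 202 bp, against 162 bp over all genes. For anti-Flag the covered length was lower in knockdown at 24 of 30 genes, higher at 5 (PSMC5, PSMC6, PSMD3, PSMD9 and PSMG2) and equal at PSMG1. At PSMG1 the anti-Flag peaks of both conditions covered all 2001 bases within 1 kb of the start, so the equality is a limit of the measure. The median anti-Flag difference was -318 bp, against -189 bp over all genes, of which 71.0% were lower. In knockdown the median covered length was 888 bp for anti-ETO and 349 bp for anti-Flag, over the 31 proteasome genes called by either antibody, and 825 and 399 bp over all genes. In control the medians were 581 and 803 bp over 31 proteasome genes and 600 and 692 bp over all genes, so the order of the antibodies was reversed between conditions in both.

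The 3 immunoproteasome genes had the largest anti-Flag differences among the proteasome genes. At PSMB10, 1394 bp were covered in control anti-Flag and 166 bp in knockdown, a difference of -1228 bp. At PSMB8 the values were 1621 and 556 bp (-1065 bp) and at PSMB9 1393 and 436 bp (-957 bp). Of the 7922 protein-coding genes with an anti-Flag call in either condition, 0.543% had a difference as low as that of PSMB10, 1.57% as low as PSMB8 and 2.49% as low as PSMB9. A drop cannot exceed the covered length in control, whose median over these 7922 genes was 699 bp, so many of them could not reach such values. Genes of like control length were not compared. For anti-ETO the covered lengths in control and knockdown were 1307 and 1194 bp at PSMB10, 1036 and 1198 bp at PSMB8 and 755 and 1539 bp at PSMB9. The anti-ETO covered length was thus within 162 bp of control at PSMB8 and PSMB10, and at PSMB9 the difference was 784 bp in the other direction. Since PSMB8 and PSMB9 flank TAP1, these are values of only 2 separate places in the genome. PSMC6 had the largest anti-ETO difference among the proteasome genes, 42 bp in control and 1002 bp in knockdown.

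**Figure D4:**
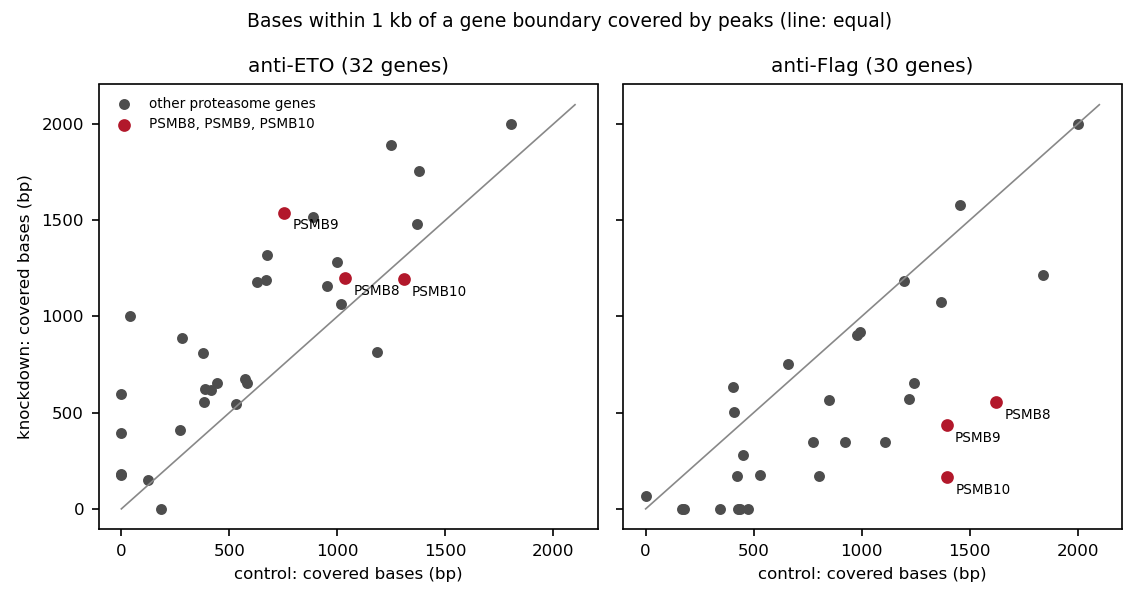
Bases within 1 kb of a gene boundary that were covered by peaks in control (horizontal axis, bp) and knockdown (vertical axis, bp), for anti-ETO (32 genes) and anti-Flag (30 genes). Each point is a gene and the line marks equal values; 29 anti-ETO points lie above the line and 24 anti-Flag points below it, with PSMB8, PSMB9 and PSMB10 (red) farthest below for anti-Flag.

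At the proteasome genes each peak of the authors' unique lists spanned exactly an anti-ETO and an anti-Flag peak of the named condition that overlapped. Control-unique peaks lay at 10 proteasome genes (20.8%, all genes 8.51%): PSMA2, PSMA3, PSMA4, PSMB8, PSMC3, PSMC4, PSMD1, PSMD2, PSMD8 and PSMD11. Knockdown-unique peaks lay at 3 (6.25%, all genes 6.84%): PSMA5, PSMC6 and PSMG2. All 10 lacked a knockdown-unique peak (20.8%, all genes 7.79%). Of the 10 genes, 7 also had a shared peak (14.6%, all genes 1.82%), and PSMA2, PSMA4 and PSMD1 did not (6.25%, all genes 6.69%). Of the 3 genes with a knockdown-unique peak, PSMA5 and PSMC6 also had a shared peak (4.17%, all genes 3.20%). Among the ribosomal protein genes, 2.3% of the cytosolic and 1.3% of the mitochondrial ones had both a control-unique and a shared peak. In the wider 50% of each list PSMB8 alone had both, and the share of all genes was also lower there, at 0.289%.

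At 5 of these 7 genes the control-unique and the shared peak lay on opposite sides of the start. At PSMA3 and PSMC4 the downstream flank was control-unique (300 and 713 bp) and the upstream flank was shared (748 and 777 bp). At PSMC3, PSMD2 and PSMD11 the upstream flank was control-unique (191, 180 and 374 bp), with its centre at -325.0, -389.5 and -431.5 bp from the start, and the downstream peak was shared (622, 655 and 470 bp), its edge reaching -15 bp at PSMC3 and -13 bp at PSMD2. At PSMB8 the control-unique peak (820 bp) was centred at -982.5 bp, towards TAP1, and the shared peak covered the start. At PSMD8 the control-unique peak of 399 bp lay at the far end of the gene, near GGN. Of the 10 control-unique peaks, 8 overlapped a knockdown anti-ETO peak and no knockdown anti-Flag peak, and those of PSMD1 and PSMD8 overlapped neither. Over all 1512 control-unique peaks near a gene boundary, 83.8% had a knockdown anti-ETO call alone and 13.3% neither. The 3 knockdown-unique peaks each had a different history in control: PSMA5 had an anti-Flag call (177 bp), PSMG2 an anti-ETO call (387 bp) and PSMC6 neither. Over all 1288 knockdown-unique peaks near a gene boundary, 50.9% had a control anti-Flag call alone, 11.3% an anti-ETO call alone and 35.8% neither.

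Promoter sequences are shown for the members whose unique peaks lay nearest the start and for those with the widest shared peaks, to place the peak edges on the DNA. They are the 250 bases before the listed start, from RefSeq (GRCh38.p14), written 5′ to 3′ on the gene's strand. Capitals mark matches on either strand to 4 motifs described below. The first set had control-unique peaks:
PSMA4 (chr15:78540155-78540404, + strand): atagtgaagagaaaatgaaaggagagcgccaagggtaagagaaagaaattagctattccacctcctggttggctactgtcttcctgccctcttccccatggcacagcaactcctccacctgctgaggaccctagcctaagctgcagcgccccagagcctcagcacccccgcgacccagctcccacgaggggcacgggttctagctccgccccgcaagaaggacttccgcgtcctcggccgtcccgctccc
PSMD1 (chr2:231056617-231056866, + strand): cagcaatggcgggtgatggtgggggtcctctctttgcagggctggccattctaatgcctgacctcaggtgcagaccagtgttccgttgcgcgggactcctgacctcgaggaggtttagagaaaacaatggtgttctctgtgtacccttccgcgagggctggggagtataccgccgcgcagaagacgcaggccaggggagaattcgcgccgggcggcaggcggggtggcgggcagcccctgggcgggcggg
PSMA3 (chr14:58244593-58244842, + strand): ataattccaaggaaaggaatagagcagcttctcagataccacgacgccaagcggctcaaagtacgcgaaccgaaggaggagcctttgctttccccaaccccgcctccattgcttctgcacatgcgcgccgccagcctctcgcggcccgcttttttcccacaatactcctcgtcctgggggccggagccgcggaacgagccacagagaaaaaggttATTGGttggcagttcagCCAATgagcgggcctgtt

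Peaks covered 160 of these 250 bases in control anti-ETO, 194 in knockdown anti-ETO and 214 in control anti-Flag at PSMA4, and 0 in knockdown anti-Flag. At PSMD1 they covered 185 and 176 bases in control anti-ETO and anti-Flag and 0 in both knockdown lists. At PSMA3, where the start lies in the gap between both flanks, they covered 58, 49, 34 and 18 bases in the order control anti-ETO, knockdown anti-ETO, control anti-Flag and knockdown anti-Flag. The paired CCAAT matches of PSMA3, at -35 to -31 and -18 to -14 from the start, lie in that gap.

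The second set had knockdown-unique peaks, of 847 bp at PSMC6 and 481 bp at PSMA5:
PSMC6 (chr14:52706950-52707199, + strand): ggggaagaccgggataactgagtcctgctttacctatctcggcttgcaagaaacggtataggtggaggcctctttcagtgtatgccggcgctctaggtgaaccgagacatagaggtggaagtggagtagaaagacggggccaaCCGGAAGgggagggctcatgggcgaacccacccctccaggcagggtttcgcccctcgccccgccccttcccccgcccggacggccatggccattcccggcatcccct
PSMA5 (chr1:109426449-109426698, - strand): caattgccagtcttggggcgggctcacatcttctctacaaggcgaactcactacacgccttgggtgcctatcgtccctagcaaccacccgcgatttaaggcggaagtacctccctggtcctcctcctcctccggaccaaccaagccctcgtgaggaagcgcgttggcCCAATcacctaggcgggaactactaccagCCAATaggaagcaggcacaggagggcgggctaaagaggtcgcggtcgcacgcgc

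At PSMC6, knockdown anti-ETO covered all 250 bases and knockdown anti-Flag 94, and both control lists covered 0. At PSMA5 the start again lay in a gap, and 0, 37, 11 and 28 bases were covered in the order used above. The knockdown-unique peak of PSMG2 lay outside the 250 bases, with its centre 1039 bp before the start.

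The third set had the widest shared peaks, of 3339 bp at PSMG1 and 3150 bp at PSME2. The listed start of PSMG1 lies 63 bp inside its boundary:
PSMG1 (chr21:39183452-39183701, - strand): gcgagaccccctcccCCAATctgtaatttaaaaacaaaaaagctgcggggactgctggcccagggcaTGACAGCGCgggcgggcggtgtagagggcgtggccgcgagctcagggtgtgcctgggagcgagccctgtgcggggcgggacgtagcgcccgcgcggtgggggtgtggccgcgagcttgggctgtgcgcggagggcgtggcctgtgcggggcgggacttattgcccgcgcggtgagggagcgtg
PSME2 (chr14:24146611-24146860, - strand): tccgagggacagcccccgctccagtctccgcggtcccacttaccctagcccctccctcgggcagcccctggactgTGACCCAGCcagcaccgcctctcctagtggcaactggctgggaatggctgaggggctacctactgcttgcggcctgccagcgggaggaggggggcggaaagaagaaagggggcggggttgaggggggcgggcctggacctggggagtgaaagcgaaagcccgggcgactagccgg

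At PSMG1 all 4 lists covered all 250 bases. At PSME2 both anti-ETO lists and control anti-Flag did so, and knockdown anti-Flag covered 41.

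The 4 motifs were searched on both strands in the 250 bases before 1 start per gene, for 42 proteasome genes and 15843 protein-coding genes in all. TGACNNNGC, the core bound by NFE2L1 and related factors, was found at 11 of 42 (26.2%, all promoters 11.6%): PSMB3, PSMB9, PSMD3, PSMD5, PSMD9, PSMD12, PSME1, PSME2, PSME4, PSMG1 and PSMG2. TGTGGT, the core sequence recognised by RUNX proteins and so by the AML1 part of the fusion, was found at 5 (11.9%, all promoters 9.11%): PSMB5, PSMC5, PSMD6, PSMD9 and PSMD13. CCAAT, the box bound by NF-Y, was found at 18 (42.9%, all promoters 34.5%), and CCGGAAG, an ETS-type site, at 10 (23.8%, all promoters 11.8%). Among the promoters of 4205 genes with a shared peak, 8.35% held TGTGGT, 12.5% TGACNNNGC, 37.8% CCAAT and 14.9% CCGGAAG. Of the 7 promoters printed above, none held TGTGGT in its 250 bases. The 2 widest shared peaks, of 3339 bp (PSMG1) and 3150 bp (PSME2), reach far beyond these bases, and the rest of them was not searched. A match is a description of these letters, not of a bound site.

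Peak widths at proteasome genes were compared with all peaks near a gene boundary. The median width was 405 bp in control anti-ETO (all 499 bp) and 612 bp in knockdown anti-ETO (all 533 bp). It was 476.5 bp in control anti-Flag (all 460 bp) and 347.5 bp in knockdown anti-Flag (all 406 bp). The shared peaks had a median of 789 bp, against 1129 bp for all shared peaks near a boundary, and the control-unique peaks one of 337 bp against 437.5 bp. Proteasome genes thus had a shared peak more often than all genes, while those peaks were narrower than shared peaks near boundaries as a whole.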

How the data were processed

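The lists are the authors' deposited peak intervals, with chromosome, start and end as columns and no score. Per the submitters' processing notes the tools were fastp 0.19.5, Bowtie2 2.3.5, MACS2 2.2.5 and HOMER 4.8, with builds hg38 and sacCer3. Their parameters, the use of the IgG libraries and the handling of replicates are not given in the sources used here. A more permissive threshold or deeper library lengthens a list. Of the 9 lists, 7 were used, and starts are printed counted from 1. Gene boundaries came from the RefSeq table of GRCh38.p14 and strands and starts from its promoter table.

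Calls, covered bases and motifs were computed in Python 3.11.15 with numpy 2.4.6 and pandas 2.3.3, and figures were drawn with matplotlib 3.10.9. The lists hold 1 set of calls per group, so no test was made. The members, pathway genes, motifs and lists were chosen with earlier results of these data known. Named genes are those with a unique peak, with no call, with a call that differs between conditions, with the widest shared peak of their role group, and PSMB8, PSMB9, PSMB10, PSME1 and PSME2; the other members named give the rest of each role group. Alternatives were 8 other ways of counting, plus shorter lists for covered bases, added after the data were seen.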

Additional observations from a re-analysis of the deposited data

Results flagged for a closer look

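The covered length at the proteasome genes differed in opposite directions for the 2 antibodies. The median difference of knockdown minus control was 207 bp for anti-ETO and -318 bp for anti-Flag. With 1 list per antibody and condition this difference was not tested. The medians over all protein-coding genes differed in the same directions, 234 and -189 bp.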

How the results depend on the processing

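The counts were repeated under 8 other ways of counting, and the covered lengths and the count of genes with both a control-unique and a shared peak under alternatives added after the data were seen. Of 114 such values, 90 stayed within 1.5 times the reported one. No paired analysis was possible because the lists name no library.

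With the wider 50% of each list the counts were 15 (control anti-ETO), 13 (knockdown anti-Flag), 9 (shared), 2 (control-unique), 1 (knockdown-unique) and 10 (all 4 lists), with all genes at 22.7%, 21.6%, 15.9%, 4.05%, 3.39% and 15.9%. Calls in 1 condition were then 8 (anti-ETO, knockdown), 0 (anti-ETO, control) and 10 (anti-Flag, control), with all genes at 8.2%, 1.39% and 7.13%. Only PSMB8 had both a control-unique and a shared peak (all genes 0.289%). Leaving out the 14 genes with a peak near another gene gave 15 (control anti-ETO), 18 (knockdown anti-ETO), 15 (control anti-Flag), 12 (knockdown anti-Flag), 11 (shared) and 11 (all 4 lists) of 34, a set from which only called genes were removed. All genes were not filtered alike, so these counts have no matching share. Each knockdown list was also cut to its control list's length, by width. Anti-ETO calls in 1 condition were then 2 (knockdown, all genes 3.78%) and 3 (control, all genes 5.4%). Anti-Flag calls in control only were 10 (all genes 10.7%). Genes with a knockdown-unique peak numbered 5 at 2500 bp (all genes 10.4%) and 6 over the gene body (all genes 12.3%). Anti-Flag calls in knockdown only were 0 at 500 bp, by peak centre and over the gene body, with all genes at 2.3%, 2.86% and 2.77%. With the knockdown lists cut, the median covered difference was 202 bp for anti-ETO (all genes 162 bp) and -425.5 bp for anti-Flag (all genes -206 bp). With all 4 lists cut to the length of the shortest it was 202 bp (all genes 162 bp) and -427 bp (all genes -240 bp). Without the 14 genes it was 180 and -348 bp, with no matching value over all genes. Positions carry no depth, so weak and strong calls could not be told apart.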
